A study of Mus musculus with 11 samples.

Results

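The 5 genes that encode the subunits of NF-kappaB in the mouse, Rela, Relb, Rel, Nfkb1 and Nfkb2, are described here among 21631 protein-coding genes, with the binding of an oncogenic NF-kappaB fusion and of chromatin proteins at each of them. They were chosen by name, with earlier results of these data known. Every peak of 11 deposited CUT&RUN peak lists that overlapped 1 of these genes, or the 5 kb beyond either end of it, was taken, and peaks up to 25 kb away were noted. All 5 genes were found in the gene table.

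The libraries came from 2 untreated mouse tumour cell lines, M00002 and M00001, each tied to a single mouse and grown in neural medium with FGF and EGF. Both carried an HA-tagged fusion, labelled CRfus1 and taken here as the ZFTA-RELA fusion of the series title, the main driver of supratentorial ependymoma. No line without the fusion was analysed here, so every group carries it. The promoter driving it was not given in the sources used here. From M00002 there were 1 library each for HA (the fusion), p65 (the product of Rela), H3K27ac with antibody ac4729, H3K27ac with antibody ac647, and IgG, the background control. From M00001 there were 1 each for HA, Cbp, p300, Rpb1 S2, Rpb1 S5 and IgG. In CUT&RUN, cells are permeabilised, an antibody guides a tethered nuclease to the DNA around its target, and the fragments cut free are sequenced. H3K27ac marks active promoters and enhancers, Cbp and p300 are related acetyltransferases that act as coactivators, and Rpb1 is the largest subunit of RNA polymerase II. A p65 antibody can bind p65 itself and the RELA part of the fusion, so the p65 list does not separate the 2 proteins.

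NF-kappaB is a family of dimeric transcription factors that share the Rel homology region, which binds DNA and joins the subunits. Rela, Relb and Rel encode the subunits p65, RelB and c-Rel, which carry a domain that activates transcription. Nfkb1 and Nfkb2 encode the precursors p105 and p100, which are processed to p50 and p52 and which, unprocessed, hold other subunits in the cytoplasm. In the canonical pathway dimers of p65 and p50 are freed from an inhibitor. In the noncanonical pathway p100 is processed and dimers of RelB and p52 enter the nucleus. Several of these genes are textbook targets of NF-kappaB itself, through a DNA sequence called the kappaB site.

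The promoter sequences that bear on the results come from RefSeq, build GRCm38.p6, the assembly behind mm10. Its promoter table held 1 window for Rela, 1 for Rel and 3 for Nfkb2, and none was matched for Relb and Nfkb1. Each window holds 250 bases before a transcript start and 50 from it on, and only bases before the start are shown. The first pair are the promoters of Nfkb2, which carried the fusion in both lines, and the capitals mark matches to the kappaB consensus, searched on both strands.

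Nfkb2, first start, chr19:46304487-46304736, plus strand: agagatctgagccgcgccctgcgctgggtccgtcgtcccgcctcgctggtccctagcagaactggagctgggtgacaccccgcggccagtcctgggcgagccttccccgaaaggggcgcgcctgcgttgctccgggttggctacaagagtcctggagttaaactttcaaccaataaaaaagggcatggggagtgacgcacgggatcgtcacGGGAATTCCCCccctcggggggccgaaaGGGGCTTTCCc

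Nfkb2, second start, chr19:46305445-46305694, plus strand: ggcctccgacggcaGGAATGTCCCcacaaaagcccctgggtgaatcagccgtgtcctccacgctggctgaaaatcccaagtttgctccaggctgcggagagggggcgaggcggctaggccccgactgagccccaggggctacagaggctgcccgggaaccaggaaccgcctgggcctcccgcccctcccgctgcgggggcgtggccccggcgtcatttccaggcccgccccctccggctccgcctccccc

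The promoter of Rel is shown because it also holds kappaB letters, in capitals, while no HA or p65 peak was listed there.

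Rel, chr11:23770970-23771219, minus strand: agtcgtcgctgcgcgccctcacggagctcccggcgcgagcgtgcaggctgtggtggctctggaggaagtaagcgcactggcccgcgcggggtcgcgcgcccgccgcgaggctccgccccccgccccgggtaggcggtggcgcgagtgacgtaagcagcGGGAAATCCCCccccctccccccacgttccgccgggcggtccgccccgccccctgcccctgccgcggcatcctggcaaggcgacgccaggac

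The promoter of Rela is shown up to the base before the annotated gene. It held HA and p65 but no kappaB letters, and the capitals mark a match to GNGGCNNNNNNNGGG, a relaxed form of the sequence known for zinc finger proteins of the PLAG family, searched on both strands.

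Rela, chr19:5637291-5637441, plus strand: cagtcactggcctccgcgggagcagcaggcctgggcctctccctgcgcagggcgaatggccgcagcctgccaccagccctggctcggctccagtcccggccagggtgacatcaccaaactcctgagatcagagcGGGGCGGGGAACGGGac

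Among 32851 promoter windows of 300 bases, 8.46% held the kappaB consensus, 17.5% the PLAG-type letters and 7.81% TGANTCA, the AP-1 sequence. The match of one motif may overlap that of another. A match is a description of the letters and does not show that a protein binds there.

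Across the 11 lists, 56 peaks lay within 5 kb of the 5 genes, 44 of them touching the gene itself. Of these, 0 overlapped an IgG peak of either line, and the nearest IgG peak of any member lay 42.4 kb from Relb. IgG peaks lay within 5 kb of 11.2% of all genes in M00002 and 3.49% in M00001. Counted over the 9 lists other than IgG, Relb had peaks in 9, Nfkb2 in 8, Rela and Nfkb1 in 6 and Rel in 2. The median was 6 lists over the members and 3 over all genes. These counts have no replicate behind them, since each target had 1 library per line, so no test between genes or lines was possible and no p-value is given. The lists differ in length, with 30680 HA peaks in M00002 and 9365 in M00001, and the read depth is unknown. Absence from the shorter list therefore does not show absence of the protein.

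**Figure D1:**
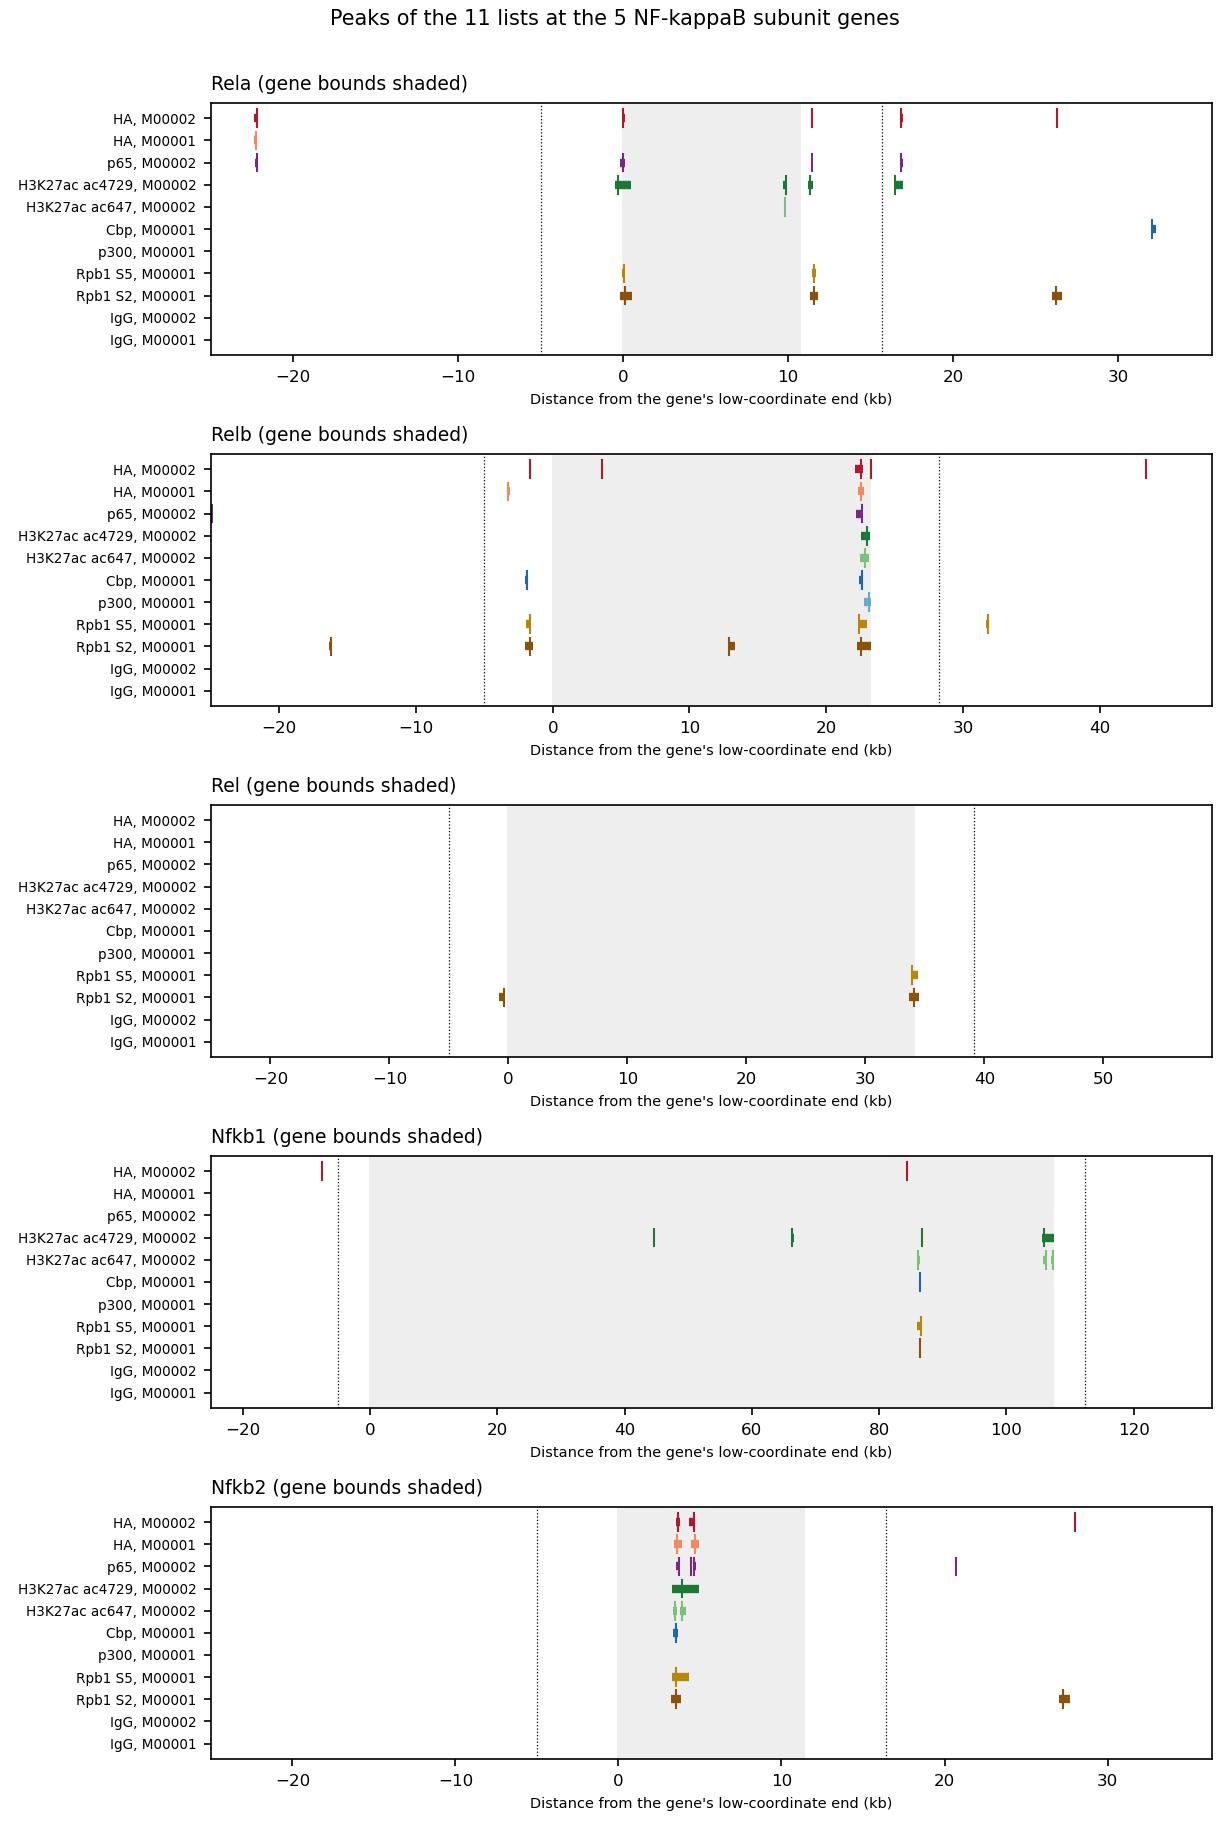
Peaks of the 11 lists by distance in kb from the low-coordinate end of each gene, with the gene bounds shaded, dotted lines 5 kb beyond the ends, thick bars for peaks to scale and ticks for summits. Relb and Nfkb2 have peaks of most lists stacked at 1 place, Rel has only Rpb1 peaks, and both IgG rows are empty at all 5 genes.

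HA peaks of M00002 lay at 4 of 5 members, against 50.2% of all genes, and HA peaks of M00001 at 2 of 5, against 22.8%. HA was present in both lines at 2 of 5, Relb and Nfkb2, against 20.4% of all genes. p65 lay at 3 of 5, Rela, Relb and Nfkb2, against 33.5%. With a −log10 q of at least 5, a stricter limit on the strength of a peak, HA of M00002 lay at the same 3 genes as p65 (27.3% of all genes). HA of M00001 then lay only at Nfkb2 (9.74%), and p65 still at its 3 genes (16.4%). The HA peak of M00001 at Relb fell just short of this limit, with a −log10 q of 4.90. H3K27ac lay at 4 of 5 with ac4729 (50.9% of all genes) and at 4 of 5 with ac647 (29.2%). Cbp lay at 3 of 5 (13.1%), p300 at 1 of 5 (15.8%), Rpb1 S2 at 5 of 5 (56.3%) and Rpb1 S5 at 5 of 5 (33.9%). With a −log10 q of at least 2, ac647 lay at 3 of 5, Cbp at 2, p300 at 0 and Rpb1 S5 at 4. The shares of all genes at that limit are not given here. With only 5 members, none of these counts was called different from the background.

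The share of all genes with a peak rose with gene length, and a longer gene has a longer window. Genes were put into 5 classes of equal size by length. Those of class 2, which holds Rela and Nfkb2, had HA of M00002 in 45.0% of cases and p65 in 29.7%. The class of the longest genes, which holds Nfkb1, had them in 74.8% and 53.4%. Nfkb1, the longest member at 107315 bp, had 1 weak HA peak and 0 p65 peaks.

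**Figure D2:**
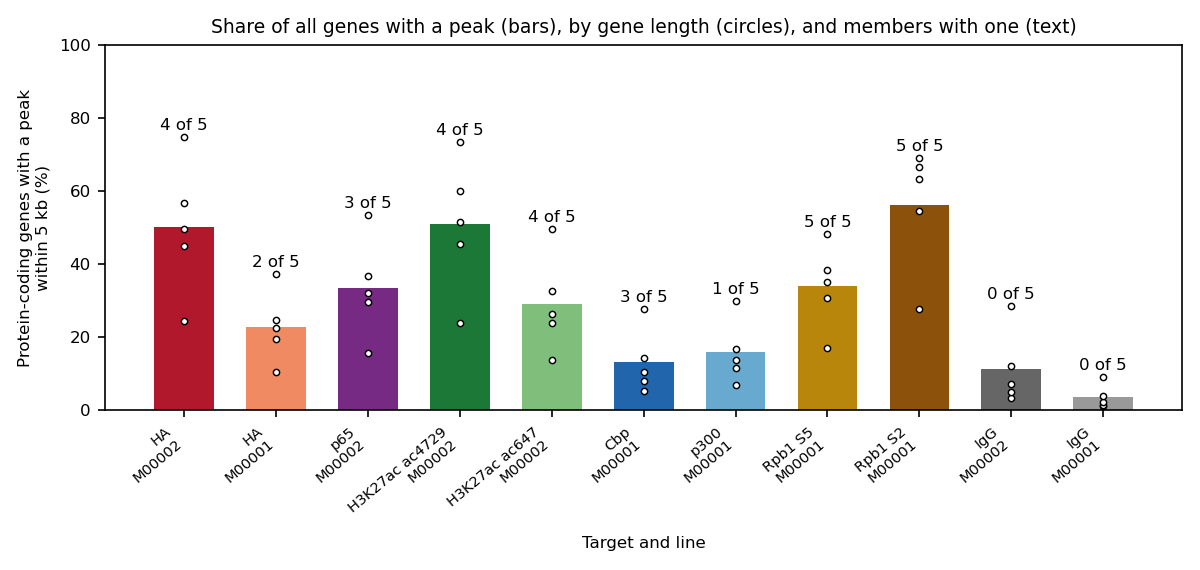
Share of all protein-coding genes with a peak within 5 kb, in percent (bars), the same within each of 5 classes of gene length (circles), and the number of the 5 members with a peak (text). HA of M00002 reaches 50.2% of all genes and 4 members, and IgG of either line reaches 0 members.

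HA and p65 peaks at the members merged into 10 sites. The fusion and p65 shared 5 of them, and 3 of these 5 had HA in M00001 too. Counted by peak, 5 of 9 HA peaks of M00002 at the members overlapped p65, against 33.7% over the whole list. For M00001, 3 of 4 HA peaks at the members overlapped HA of M00002, against 55.4% over its whole list. The whole-list share that matches 3 of 5, of M00002 sites with HA and p65, is not given here. There were 0 sites with p65 and no HA of M00002. The share of all p65 peaks without HA is not given here, so this count has no background beside it. At the 5 shared sites the HA fold of M00002, the authors' enrichment at the summit over the peak caller's background, ran from 7.65 to 14.6. At the 4 sites with HA of M00002 and no p65 it ran from 3.51 to 4.45. Over the whole M00002 list, 65.9% of HA peaks with a fold of at least 5 overlapped p65, and 10.2% of those with a fold of 3 to 5. All 5 sites with HA and p65 overlapped H3K27ac of at least 1 antibody and 4 of the 5 overlapped Rpb1. Of the 4 sites without p65, 0 overlapped H3K27ac and 1 overlapped Rpb1. Over all HA peaks of M00002, 70.9% of those with p65 and 23.9% of those without overlapped H3K27ac of at least 1 antibody, and 40.2% and 16.6% overlapped Rpb1.

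**Figure D3:**
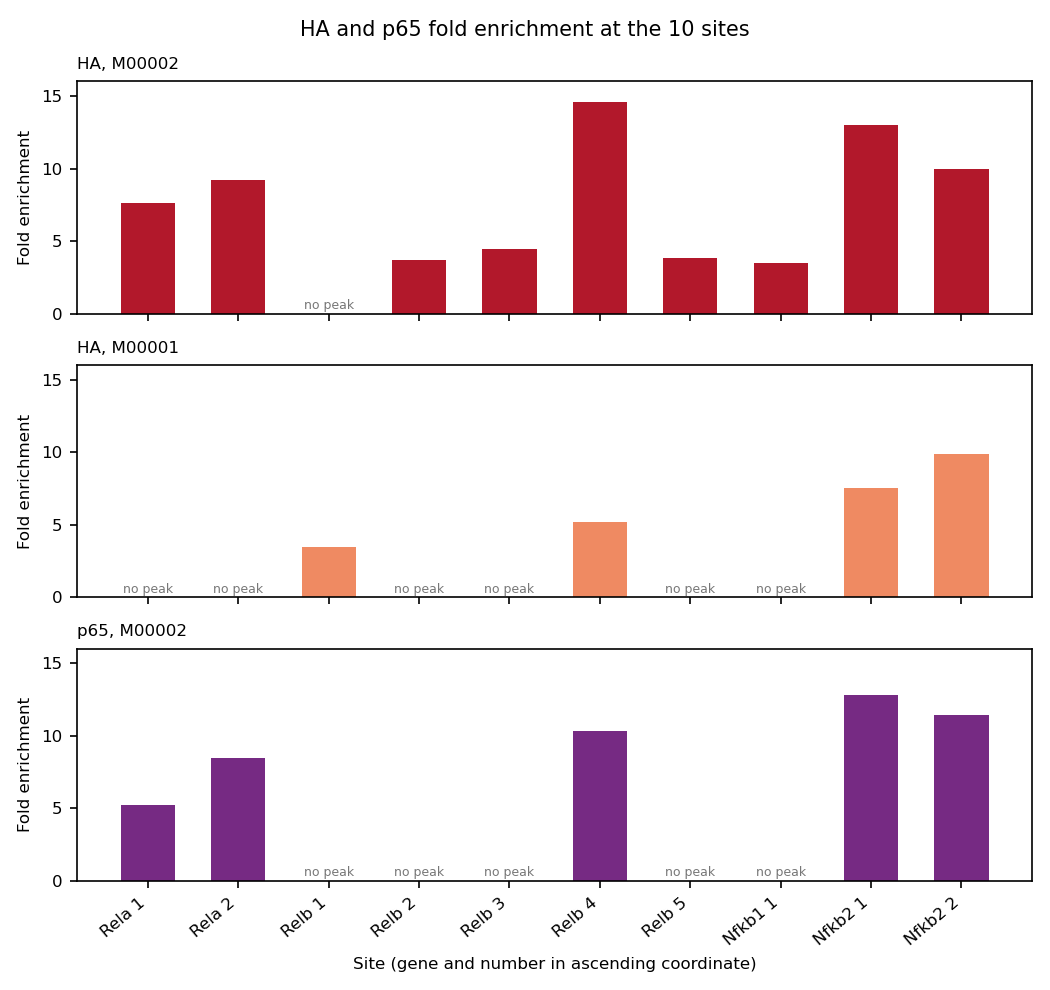
Fold enrichment (bars, from 0) of HA in M00002, HA in M00001 and p65 in M00002 at the 10 sites, numbered by ascending coordinate within each gene. The tallest HA bars of M00002, at site 4 of Relb (14.6) and site 1 of Nfkb2 (13.0), have peaks in all 3 panels, and the 4 shortest have no p65 peak.

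Among the subunits that activate transcription, Relb, the partner of p52 in the noncanonical pathway, had the strongest HA peak of any member in M00002. The gene spans 19606217 to 19629438 on chromosome 7. At its high-coordinate end, HA of M00002 had a fold of 14.6 (19628340 to 19628889), which ranked 1641 of 30680 peaks in its list. In the same place HA of M00001 had a fold of 5.15 (19628529 to 19628992), rank 3417 of 9365, and p65 a fold of 10.3 (19628399 to 19628911), rank 1832 of 16253. The 3 summits fell close together, with 20 bp between the HA summits of the lines and 48 bp between HA and p65 in M00002. The lists differ in length, so these ranks place each peak within its own list and do not compare the lines.

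This end of Relb also had a peak of every other target but IgG. H3K27ac had folds of 6.56 with ac4729 and 5.63 with ac647. Rpb1 had folds of 7.88 with S5 and 7.77 with S2, at percentiles 95.2 and 94.4 of their lists, so polymerase there ranked higher than at any other member. Cbp had a fold of 3.46 and a −log10 q of 1.20, and p300 a fold of 3.90 and a −log10 q of 1.89, so both coactivator peaks were weak. The p300 peak (19628994 to 19629491) did not overlap the HA peak of M00001, with 1 base between them, but did overlap a weak second HA peak of M00002 (19629487 to 19629573, fold 3.85). Relb was the only member with a p300 peak within 5 kb.

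The remaining peaks of Relb were weak or lay at its neighbour. Inside the gene HA of M00002 had a fold of 4.45 (19609742 to 19609884), with no other list there, and Rpb1 S2 had 3.48 (19619041 to 19619534). At the other end, the window reached the start of Clasrp, a minus-strand gene 1699 bp away. There HA of M00002 (3.67), Rpb1 S2 (5.35), Rpb1 S5 (4.22) and Cbp (3.43) had peaks between 19604191 and 19604766. HA of M00001 had a separate peak with a fold of 3.48 and a −log10 q of 0.750, 3116 bp beyond Relb. This was the most distant peak within the 5 kb limit, and the nearest beyond it, H3K27ac (4.26), lay 5719 bp past Rela, where HA (7.11) and p65 (4.85) of M00002 followed at 6120 and 6145 bp. The peaks beside Clasrp cannot be assigned to Relb by position alone. Peaks at the high-coordinate end also lay within 5 kb of Clptm1. Between 5 and 25 kb from Relb, HA of M00002 had a fold of 2.99, p65 2.92, Rpb1 S2 3.06 and Rpb1 S5 4.11.

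Rela, which encodes p65, the protein joined to ZFTA in the fusion, spans 5637442 to 5648134 on chromosome 19. HA of M00002 lay over its start with a fold of 7.65 (5637415 to 5637539) and p65 with a fold of 5.19 (5637272 to 5637539), their summits 17 bp apart. These ranked at percentiles 77.6 and 55.4 of their lists. H3K27ac with ac4729 covered the start with a fold of 4.77, Rpb1 S2 with 3.88 and Rpb1 S5 with 3.71. HA of M00001, Cbp, p300 and ac647 had no peak there. The HA summit fell inside the PLAG-type match shown in capitals, and the p65 summit 5 bp from it. The window held 3 PLAG-type matches in all, and 1.31% of promoter windows held 3 or more, and 0 matches to kappaB or AP-1.

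A second site lay 690 bp past the far end of Rela, toward Sipa1. There HA of M00002 reached 9.24 (5648824 to 5648972), its highest value at Rela, and p65 8.44 (5648852 to 5648958), with summits 20 bp apart. Rpb1 S2 had a fold of 6.88, at percentile 90.8 of its list, S5 3.73 and ac4729 3.90. Polymerase with S2 was thus listed with a higher fold past the end of the gene than at its start. This second site also lies within 5 kb of Sipa1, a minus-strand gene 3050 bp from Rela. Its peaks cannot be assigned to Rela by position alone. H3K27ac with ac647 had its only peak at Rela inside the gene, near the far end, at 3.43 (5647164 to 5647336), where ac4729 had 3.54.

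HA of M00001 had no peak within 5 kb of Rela. Its nearest lay 22.2 kb before the gene, between Kat5 and Rela, with a fold of 7.99 (5615085 to 5615258), and HA of M00002 (6.87) and p65 (5.20) lay over the same place. The distal site was therefore the only one near Rela listed for the fusion in both lines. No H3K27ac, Cbp, p300 or Rpb1 peak overlapped it. Closer in, between 5 and 25 kb, the other peaks lay within or beside Sipa1 and Pcnx3.

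Rel, which encodes c-Rel, the subunit best known from lymphocytes, stood at the other extreme. The gene spans 23736847 to 23770969 on chromosome 11, on the minus strand. At its start Rpb1 S2 had a fold of 5.38 (23770543 to 23771347) and S5 5.69 (23770657 to 23771229), and past its far end S2 had 3.55 (23736020 to 23736583). That last peak also lies within 5 kb of the end of Pus10, 3970 bp from Rel, and cannot be assigned by position alone. The remaining lists had no peak within 25 kb. The nearest HA peak lay 37.5 kb away in M00002 and 239 kb away in M00001, the nearest p65 peak 239 kb away and the nearest H3K27ac peak 70.3 kb away. Rpb1 with both antibodies and neither HA in any line nor p65 was found at 5.16% of all genes. The marks come from different lines: polymerase was profiled in M00001 and H3K27ac in M00002, so the presence of one and absence of the other cannot be read as one state of the gene. The promoter window of Rel held 2 overlapping kappaB matches, on opposite strands, as the capitals show. It also held 2 PLAG-type matches, not in capitals, and 4.45% of promoter windows held 2 or more. PLAG-type letters were thus not limited to the member promoters with HA.

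Of the precursor genes, Nfkb2, which encodes p100 and p52 of the noncanonical pathway, had the fusion in both lines at a pair of sites. The gene spans 46300994 to 46312400 on chromosome 19. At the first site, over the first of 3 transcript starts of the promoter table (46304737), HA of M00002 had a fold of 13.0 (46304541 to 46304757), HA of M00001 7.50 (46304410 to 46304882) and p65 12.8 (46304541 to 46304759). At the second, over the start at 46305695, the folds were 10.0 (46305322 to 46305716), 9.84 (46305426 to 46305927) and 11.4 (46305585 to 46305725). In M00002 the first site had the higher fold for HA and p65, and in M00001 the second. The order between the sites was not tested in either line.

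The 2 sites differed in what else was listed. At the first, ac647 had a fold of 7.65, the highest of any member, Cbp 4.48, Rpb1 S2 7.49 and Rpb1 S5 6.09. At the second, Cbp, p300, S2, S5 and ac647 had no peak, and only ac4729 reached it, through 1 broad peak over both sites (46304264 to 46305926, fold 6.59). A second ac647 peak, with a fold of 4.22, began within the HA peak of M00001 at the first site and ended short of the second (46304793 to 46305163). The Rpb1 S5 peak ended at 46305308, short of the second site. A non-coding gene, 4833438C02Rik (46303585 to 46305629), spans the first site and part of the second, so position does not assign the polymerase to one transcript. Between 5 and 25 kb from Nfkb2, HA of M00002 had a fold of 6.36, p65 2.96 and Rpb1 S2 5.49, the HA and S2 peaks overlapping Fbxl15.

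The kappaB matches of Nfkb2 lay from 2 to 197 bp from the HA and p65 summits, closest for p65 at the first start. At the first start, GGGAATTCCC (46304698 to 46304707) lay 2 bp from the p65 summit, 26 bp from the HA summit of M00002 and 92 bp from that of M00001. It overlaps a further match by all but 1 base. GGGGCTTTCC (46304726 to 46304735) lay 30 bp from the p65 summit, 54 bp from the HA summit of M00002 and 120 bp from that of M00001. Counting overlapping matches, 3 fell in this window, and 0.186% of all windows held 3 or more. At the second start, GGGACTTTCC (46305705 to 46305714), just inside the transcript, lay 40 bp from the HA summit of M00001 and 90 bp from the common summit of HA and p65 in M00002. Each of these lay inside HA peaks of both lines and a p65 peak. Farther up, GGAATGTCCC (46305459 to 46305468) lay inside the same HA peaks, 147 bp from the common summit, and touched a weak p65 peak of its own (46305390 to 46305470, fold 3.79). Among the 1237 promoter windows overlapped by HA of both lines and p65, 14.2% held a kappaB match, 37.7% a PLAG-type match and 4.85% the AP-1 sequence. A PLAG-type match also lay at each of these starts, 90 bp and 38 bp from the HA summits of M00002, and 24 bp and 88 bp from those of M00001. It was nearer than any kappaB match to the M00001 summit at the first start and to the M00002 summit at the second. A kappaB match was nearer in the other line at each start. The AP-1 sequence matched only at the second start, 124 bp from the HA summit of M00002.

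**Figure D4:**
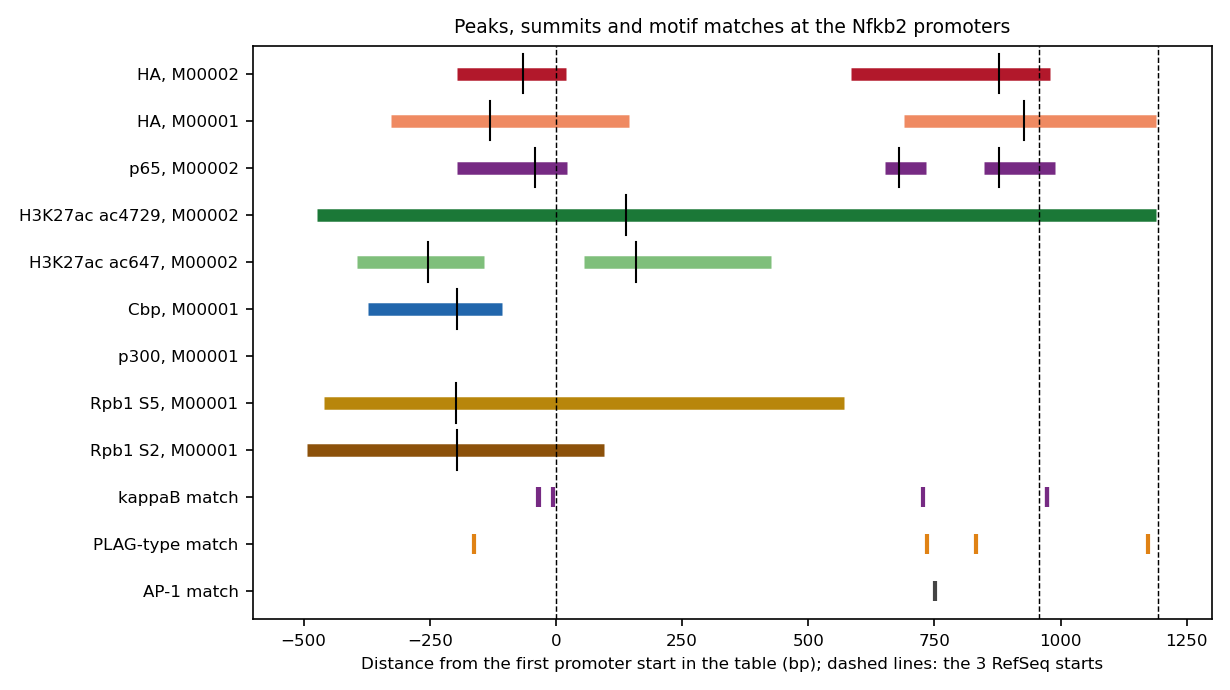
Peaks (bars, to scale), their summits (black ticks) and motif matches at Nfkb2, by distance in bp from the first transcript start of the promoter table, with the 3 starts dashed. HA of both lines and p65 form 2 groups, while Cbp, Rpb1 and ac647 lie at the first, with kappaB matches in both groups.

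Nfkb1, which encodes p105 and p50 of the canonical pathway, had H3K27ac and polymerase but little of the fusion. It spans 135584655 to 135691969 on chromosome 3. At its high-coordinate end ac4729 had a peak 1835 bp wide with a fold of 5.93, and ac647 had folds of 4.65 and 3.44. Deeper in the gene ac4729 had weak peaks alone, with folds of 3.49 (135629179 to 135629431) and 2.87 (135650811 to 135651280). A further place inside the gene, 20643 to 21121 bp from that end by the summits, held Rpb1 S5 (4.97), Rpb1 S2 (4.73), Cbp (4.34), ac647 (4.69) and ac4729 (3.12). These Rpb1 and Cbp peaks were the only ones of the gene. The single HA peak of M00002 within 5 kb (135669044 to 135669142) had a fold of 3.51 and lay 1440 bp from the S5 peak. It had a −log10 q of 1.14 and percentile 21.0 of its list. Another HA peak of M00002, with a fold of 2.82, lay 7392 bp beyond the low-coordinate end of the gene. The nearest p65 peak was 67.5 kb away and the nearest HA peak of M00001 146 kb away. H3K27ac with both antibodies and no p65 was found at 8.51% of all genes.

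Ordered by the strongest HA peak of M00002, the members ran Relb (14.6), Nfkb2 (13.0), Rela (9.24), Nfkb1 (3.51) and Rel (no peak). For p65 the order was Nfkb2 (12.8), Relb (10.3) and Rela (8.44). For HA of M00001 it was Nfkb2 (9.84) and Relb (5.15). The strongest ac4729 peaks of Nfkb2 (6.59) and Relb (6.56) were nearly equal, followed by Nfkb1 (5.93) and Rela (4.77). For Rpb1 S2 the order was Relb (7.77), Nfkb2 (7.49), Rela (6.88), Rel (5.38) and Nfkb1 (4.73), and for S5 Relb (7.88), Nfkb2 (6.09), Rel (5.69), Nfkb1 (4.97) and Rela (3.73). For ac647 it was Nfkb2 (7.65), Relb (5.63), Nfkb1 (4.69) and Rela (3.43), for Cbp Nfkb2 (4.48), Nfkb1 (4.34) and Relb (3.46), and for p300 only Relb (3.90) had a peak. The HA, p65 and Rpb1 values of Rela in these orders come from the site toward Sipa1. At the start of Rela the folds were 7.65 for HA of M00002, 5.19 for p65, 3.88 for S2 and 3.71 for S5. With the value at its start, Rela would come last for S2. Without replicates no neighbours in these orders can be said to differ.

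**Figure D5:**
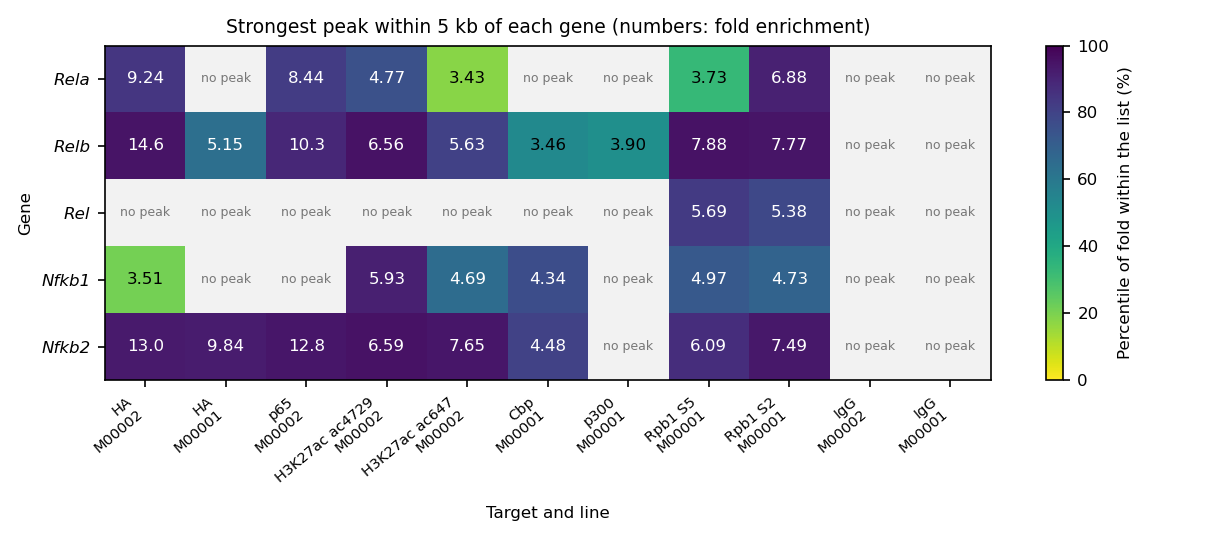
Percentile, within its list, of the strongest peak within 5 kb of each gene (colour, in percent), with its fold enrichment as a number. Relb and Nfkb2 are dark in most columns, Rel has values only for Rpb1, and the IgG columns are empty.

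Genes of similar pattern were sought by the distance between percentiles of the strongest peak over the 9 lists, leaving out genes that share a peak and peaks that overlap IgG. Nearest to Nfkb2 were Eef2kmt, Rbm14 and Ccl5, at distances of 12.3, 15.2 and 20.3 percentile points. Ccl5 encodes an inflammatory chemokine. All 3 had a peak in the same 8 lists as Nfkb2. Nearest to Relb were Specc1 (24.8), Cactin (29.1) and Pip5k1c (29.4), the last pair neighbours with common peaks. Nearest to Rela were Cacna2d2 (21.0), Psrc1 (24.3) and Gtse1 (24.9), and nearest to Nfkb1 Ufd1 (30.6), with Cetn4 and Bbs12 (both 34.6). Rel, with peaks in only 2 lists, was not compared.

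In a wider list of receptors, adaptors, kinases, inhibitors and feedback genes of the pathway, HA of both lines lay at 4 of 11 receptors and adaptors, 1 of 5 kinases and 6 of 7 inhibitors and feedback genes, against 20.4% of all genes. These counts were not tested. The kinase was Map3k14, which starts the noncanonical pathway, where the HA fold was 13.3 in M00002 and 11.2 in M00001, and the p65 fold 12.1. At the inhibitor gene Nfkbib the HA fold was 13.2 in M00002 and 9.41 in M00001, and at Nfkbie, another inhibitor gene, 19.3 and 9.45. Cyld, a deubiquitinase that restrains the pathway, had 15.2 and 10.3. In M00002, whether or not M00001 had a peak, HA lay at 3 of 5 kinases, against 50.2% of all genes. An IgG peak of at least 1 line lay within 5 kb of 2 of the 5.

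Markers were read from H3K27ac with both antibodies in M00002, found at 27.7% of all genes. It lay at 6 of 8 neural progenitor genes, with Pax6 and Fabp7 without it, 4 of 5 endothelial genes, 2 of 5 neuronal genes and 3 of 8 microglial and leukocyte genes (Ptprc, Csf1r and Tmem119). The same mark lay at 4 of 5 members. An IgG peak of at least 1 line lay within 5 kb of 3 of the 5 endothelial genes, Pecam1, Tek and Kdr. Of these, Tek and Kdr were counted with H3K27ac. In each other marker group IgG lay at 1 gene (Nes, Csf1r and Rbfox3). A part of other cell types in the members' peaks was not tested.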

How the data were processed

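Each of 11 CUT&RUN libraries was deposited as 1 list of peaks, called per sample. Per the submitters' processing notes, reads were handled with Trim Galore and FastQC, Bowtie2 2.3.5.1 and MACS2, as well as deepTools, on build mm10. Settings and the control for calling were not given in the sources used here. Read in MACS2's column order, the deposited values are a score, a fold enrichment (a ratio to the modelled background), the −log10 of a p-value and of a q-value, and the summit's offset. No −log10 p was below 3. File names of 2 lists, HA and p65 of M00002, bear a mark that the other 9 lack, and its sense was not given in the sources used here. For HA it goes with the line. The lists hold no read counts, so depth is unknown.

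Peaks were joined to the gene bounds of GRCm38.p6, the assembly of mm10, on chromosomes 1 to 19 and X by an overlap of at least 1 bp, with Python 3.11.15, pandas 2.3.3 and NumPy 2.4.6. The joining code was tested on simulated peaks. The table holds no exons, so exons, introns and UTRs were not analysed here. Fold was compared only within a list. The percentile of a peak is its rank by fold within its list. Promoter windows were searched for letters on both strands. Members, pathway genes and markers were chosen with earlier results of these data known. Motifs were chosen after the peaks were seen. All 5 members are named, with every peak within 5 kb and their neighbours within 5 kb. Also named are the 3 genes of nearest pattern for members with peaks in at least 3 lists. Up to 6 pathway genes with HA in both lines are named by mean percentile. Alternatives were other windows, limits on q and fold, removal of peaks at IgG, summits, and a 50% overlap.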

Additional observations from a re-analysis of the deposited data

How the results depend on the processing

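Of 65 alternative values for 9 counts, 51 stayed within 1.5 times the reported one. Summits in place of whole peaks, gene bounds alone, a −log10 q of at least 2 and a 50% overlap moved none beyond that. Removal of peaks at IgG could move none, since 0 of the 56 peaks overlapped IgG. With 25 kb windows the HA peaks of M00002 rose from 9 to 15 and the p65 peaks from 6 to 10, by construction. With a −log10 q of at least 5, members with HA in both lines fell from 2 to 1 (Nfkb2), HA peaks of M00002 to 5, HA peaks of M00001 from 4 to 2, and members with Cbp or p300 from 3 to 0. With the 2000 peaks of highest fold in each list, members with HA in both lines fell to 0, HA peaks to 1 in M00002 and 2 in M00001, and HA peaks of M00001 that overlap HA of M00002 from 3 to 0. The p65 peaks were then 3, HA peaks of M00002 with p65 1 in place of 5, members with H3K27ac of both antibodies 1 in place of 4, and members with Rpb1 3 in place of 5. That limit keeps a smaller share of a longer list. With 1 library per line and target, no library could be left out of a group. Unknown read depth limits what absence from a list can show.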

Other observations

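The NFAT genes encode transcription factors whose DNA-binding part is related to the Rel homology region of NF-kappaB. HA of both lines lay within 5 kb of 4 of these 5 genes, against 20.4% of all genes, p65 at 5 of 5 (33.5% of all genes) and H3K27ac of both antibodies at 5 of 5 (27.7%). Gene length was not taken into account here. In the class of the longest genes these shares were 34.3%, 53.4% and 47.8%. Nfatc3 had HA folds of 15.1 in M00002 and 10.6 in M00001, with a p65 fold of 13.6, and Nfatc2 had 16.6, 8.43 and 10.2. IgG lay at 0 of them. The set was chosen with earlier results of these data known and was not tested against other genes.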
